A study of Mus musculus with 6 samples.

Results

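The solitary accessible regions of NMuMG cells are those that stood alone in the peak list of vehicle-treated cells, with no other accessible region within 100 kb on either side. They were found by merging overlapping entries of the DMSO list and keeping the regions of chromosomes 1 to 19 whose gap to the nearest other DMSO region exceeded 100 kb. The rule kept 1153 regions of the 41232 on these chromosomes (2.80%) and of the 42310 DMSO regions in all. The members were thus chosen by the measured positions of DMSO regions, and no treated list was used. They were followed after treatment with BRM014, a small molecule that inhibits the ATPase subunits of SWI/SNF, by asking whether a treated region overlapped them by at least 1 bp.

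Chromatin accessibility was measured by ATAC-seq, which marks DNA that the Tn5 transposase can reach. The samples were NMuMG cells, a cultured mouse line of mammary epithelial origin labelled wild type, given BRM014 for 6 h, BRM014 for 30 h, or the solvent DMSO. Each group had 2 biological replicates (6 samples), and the authors combined both replicates of a group into 1 peak list, so the spread between replicates could not be seen. For DMSO a time of 30 h is given by the name of its list alone, and no vehicle list matches the 6 h treatment in time. All intervals below are 95% intervals that cover counting error only, and they treat regions as independent.

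SWI/SNF complexes use ATP to slide or evict nucleosomes, and their motor is either BRG1 (gene Smarca4) or BRM (gene Smarca2). In many cell types they keep enhancers, regulatory DNA that lies away from gene starts, open to transcription factors. Accessible DNA far from any other accessible DNA is typical of gene-poor stretches of a chromosome, where distal enhancers and binding sites of the insulator protein CTCF are among the elements found. The lists do not tell these kinds of element apart, and regions are named here by position in mouse build mm9, since no sequence or annotation of that build was used.

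The treated lists were shorter than the DMSO list and had a lower background. The 6 h list held 25922 regions, the 30 h list 38422 and the DMSO list 42310. Relative depth was read from the lowest local background of each list, itself solved from the authors' fold enrichments and p-values: it stood at 63.0% of DMSO in the 6 h list and at 80.7% in the 30 h list. A region of the DMSO list with no overlapping treated region is called missing here, which means that it was not called and not that it was closed.

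Solitary regions sat on a low background. Their summit pileup, the number of sequenced fragments or reads stacked at the summit, had a median of 81 in solitary regions (quartiles 50 and 166) against 132 in the other DMSO regions (71 and 249). The local background at the summit, in the same units, had a median of 4.03 in solitary regions against 9.49 in the others. Wider gaps went with lower background among all DMSO regions. Its median was 16.6 for gaps up to 5 kb, 6.52 from 5 to 20 kb and 5.19 from 50 to 100 kb. Median summit pileup fell in the same order, from 155 for gaps up to 5 kb to 117 from 5 to 20 kb and 100 from 50 to 100 kb. A rule that asks for wide gaps thus picks regions low in both. At a given pileup a lower background gives a higher fold enrichment. How far pileup and background depend on each other was not tested. In 480 of the 1153 solitary regions (41.6%, 38.8 to 44.5%) the background sat at the lowest value of the list, 3.37, against 13.1% of the others (12.8 to 13.5%). Fold enrichment divides pileup by background, and it was the one measure of strength that was higher in solitary regions, with a median of 15.1 against 12.9 in the others. Regions with gaps of 5 to 20, 20 to 50 and 50 to 100 kb had medians of 15.1, 15.5 and 15.4. Those with gaps up to 5 kb had a median of 9.39. By the authors' -log10 q they were weaker, with a median of 70.1 against 92.5 in the others, and 61.2% stood at the highest score of 1000 (58.4 to 64.0%) against 70.8% of the others (70.4 to 71.3%).

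**Figure D1:**
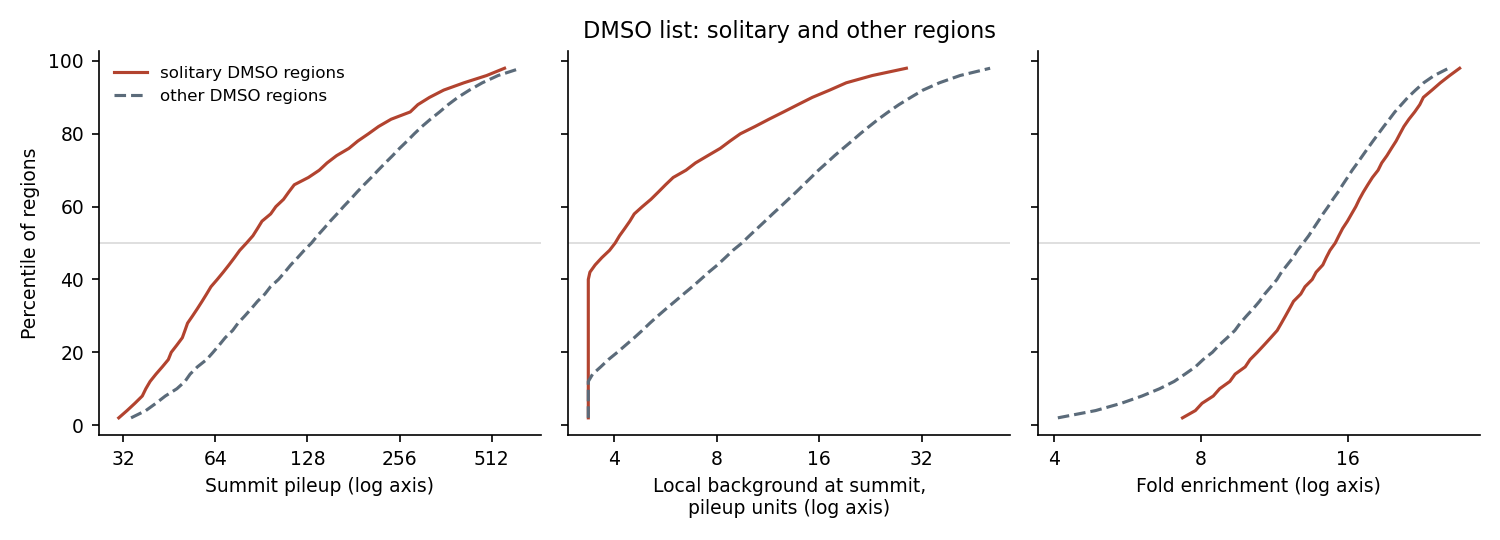
Percentile (vertical axis) against summit pileup, local background and fold enrichment (horizontal log axes) for the 1153 solitary (solid) and 40079 other DMSO regions (dashed). The solitary curve lies left of the other for pileup and background over nearly the whole range, and right of it for fold enrichment.

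In width the solitary regions were close to the rest, and fewer of them held many summits. Their median width was 672 bp (quartiles 496 and 858) against 677 bp in the others (491 and 889). A single summit was called in 50.1% of solitary regions (47.2 to 53.0%) and in 48.9% of the others (48.4 to 49.4%), and 4 or more summits in 4.34% (3.30 to 5.67%) and 6.20% (5.97 to 6.44%).

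The gaps themselves ran from just over the limit to several megabases. The median gap of a solitary region was 161 kb and the upper quartile 256 kb, against a median of 7.19 kb in the other regions. Gaps over 200 kb surrounded 413 solitary regions and gaps over 500 kb surrounded 108. Of the 1153 solitary regions, 616 had another solitary region as a direct neighbour, which the rule itself favours since such neighbours share a gap over 100 kb. The longest unbroken run held 10 regions over 8.93 Mb of chromosome 15, from 13731348 to 22663230. Their summit pileups in DMSO lay between 42 and 349. Of these 10 regions, 5 were called at 6 h and 8 at 30 h. The first and last region of a chromosome have a neighbour on one side only, which was the case for 8 members.

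At the limit, the 3 regions just inside had gaps of 100043, 100045 and 100057 bp, and the 3 just outside had gaps of 99980, 99885 and 99881 bp. Of the 3 just inside, the region on chromosome 2 from 152840620 to 152841372 was called at both times, and those on chromosome 14 (19510745 to 19511394) and chromosome 6 (49742554 to 49742879) at neither. Just outside, the regions on chromosome 11 (119352279 to 119353235) and chromosome 13 (23249688 to 23250417) were called at both times, and that on chromosome 14 from 64028105 to 64028396 at neither.

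After 6 h of BRM014, 601 of the 1153 solitary regions were missing (52.1%, 49.2 to 55.0%), against 43.2% of the other DMSO regions (42.8 to 43.7%) and a background of 43.5% over all DMSO regions of chromosomes 1 to 19. The difference between solitary and other regions was 8.88 percentage points (5.95 to 11.8). After 30 h, 421 solitary regions were missing (36.5%, 33.8 to 39.3%), against 25.7% of the others (25.2 to 26.1%) and a background of 26.0%, a difference of 10.8 points (8.03 to 13.7). Solitary regions were thus missing more often at each time, by more than counting error. The shares themselves depend on which regions the lists keep. Each list was limited to its 25922 strongest regions, the full length of the 6 h list, so the cut shortened only the DMSO and 30 h lists. Then 1480 regions were solitary, some of which can be so because a weaker DMSO neighbour was dropped. Of these, 26.3% were missing at 6 h and 27.2% at 30 h, with differences from the others of 3.50 and 7.88 points.

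At 6 h the share missing differed little between gap classes up to 100 kb, and at 30 h it was already somewhat higher above 20 kb. At 6 h it was 44.1% for gaps up to 5 kb, 42.7% from 5 to 20 kb, 42.4% from 20 to 50 kb and 43.7% from 50 to 100 kb, before the 52.1% of the solitary regions. At 30 h the same classes gave 25.4%, 25.0%, 26.9% and 29.0%, before 36.5%. Within the solitary regions it did not go on climbing with distance. At 6 h, 46.0% were missing at gaps of 100 to 150 kb (41.8 to 50.3%), 61.3% at 150 to 250 kb (56.1 to 66.3%), 56.5% at 250 to 500 kb (49.3 to 63.4%) and 44.4% beyond 500 kb (35.4 to 53.8%). The median -log10 q of these classes was 78.3, 63.4, 58.2 and 81.7, so both middle classes, which were missing most often, were also the weaker ones in DMSO. At 30 h the 4 classes stood at 31.5%, 41.6%, 40.3% and 38.0%.

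**Figure D2:**
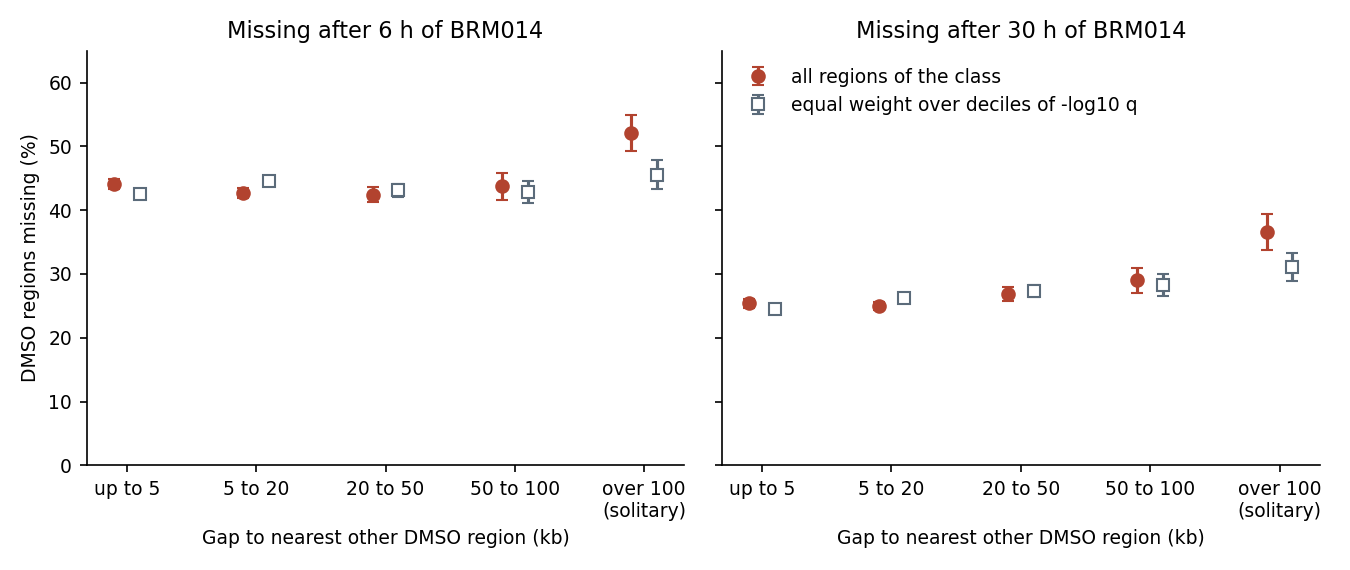
Share of DMSO regions missing after 6 h and 30 h (vertical axes, %) by gap to the nearest other DMSO region (horizontal axis, kb), with 95% intervals. Filled points are all regions of a class and open squares give each decile of -log10 q equal weight; the over 100 kb class stands at 52.1% and 36.5% without weights and at 45.6% and 31.1% with them.

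How far solitary regions differed from others of the same strength depended on the measure of strength. Within deciles of the authors' -log10 q, weighted to the solitary regions, 52.1% of solitary and 49.9% of other regions were missing at 6 h, a difference of 2.21 points whose interval included 0 (-0.106 to 4.53). That call rests on the settings. With the same deciles the interval lay above 0 under 5 alternatives, for example 1.14 to 5.32 points with only entries at a score of 1000. It included 0 with a gap over 50 kb (-0.970 to 1.85) and over 200 kb (-2.49 to 5.42). Among the 5, counting a treated region within 500 bp as called gave 2.45 to 7.09 points. That setting left the solitary share at 52.1%, so only the share of the others moved, which the wide gaps of solitary regions favour. At 30 h the weighted shares were 36.5% and 30.7%, and the difference of 5.76 points (3.37 to 8.16) stayed above counting error. Within deciles of fold enrichment the differences were larger, 15.5 points at 6 h (12.9 to 18.0) and 15.4 points at 30 h (12.9 to 17.9). Within deciles of summit pileup, a comparison added after the data were seen, they were -4.00 points at 6 h (-6.33 to -1.67), with solitary regions missing less often, and 0.518 points at 30 h (-1.89 to 2.92). Within deciles of local background, also added later, they were -8.32 points at 6 h (-10.7 to -5.89) and -2.71 points at 30 h (-5.24 to -0.184). Lower pileup and lower background went with being solitary, and beyond these weighted shares their part in the difference was not tested.

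The bins of strength show where the differences lay. In the second weakest quintile of -log10 q, 71.3% of solitary regions (65.4 to 76.6%) and 65.8% of the others (64.8 to 66.8%) were missing at 6 h, and 49.0% (42.9 to 55.2%) and 38.8% (37.7 to 39.8%) at 30 h. In the strongest quintile both were rarely missing: 9 of 179 solitary regions at 6 h (5.03%, 2.67 to 9.28%) against 3.78% of the others (3.39 to 4.22%), and 2 of 179 at 30 h (1.12%, 0.307 to 3.98%) against 1.12% (0.909 to 1.37%). By pileup, solitary regions with 64 to 127 fragments or reads were missing less often at 6 h, 52.3% (46.9 to 57.6%) against 60.3% of the others (59.4 to 61.2%). In the other bins at 6 h the intervals overlapped, with lower solitary shares everywhere except at 32 to 63. Solitary regions with 32 to 63 were missing more often at 30 h, 63.9% (59.2 to 68.3%) against 57.7% of the others (56.6 to 58.8%). From 64 up the order at 30 h was the other way, with overlapping intervals. The shares were 31.3% against 35.2% at 64 to 127, 11.3% against 12.1% at 128 to 255 and 1.13% against 1.69% above.

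**Figure D3:**
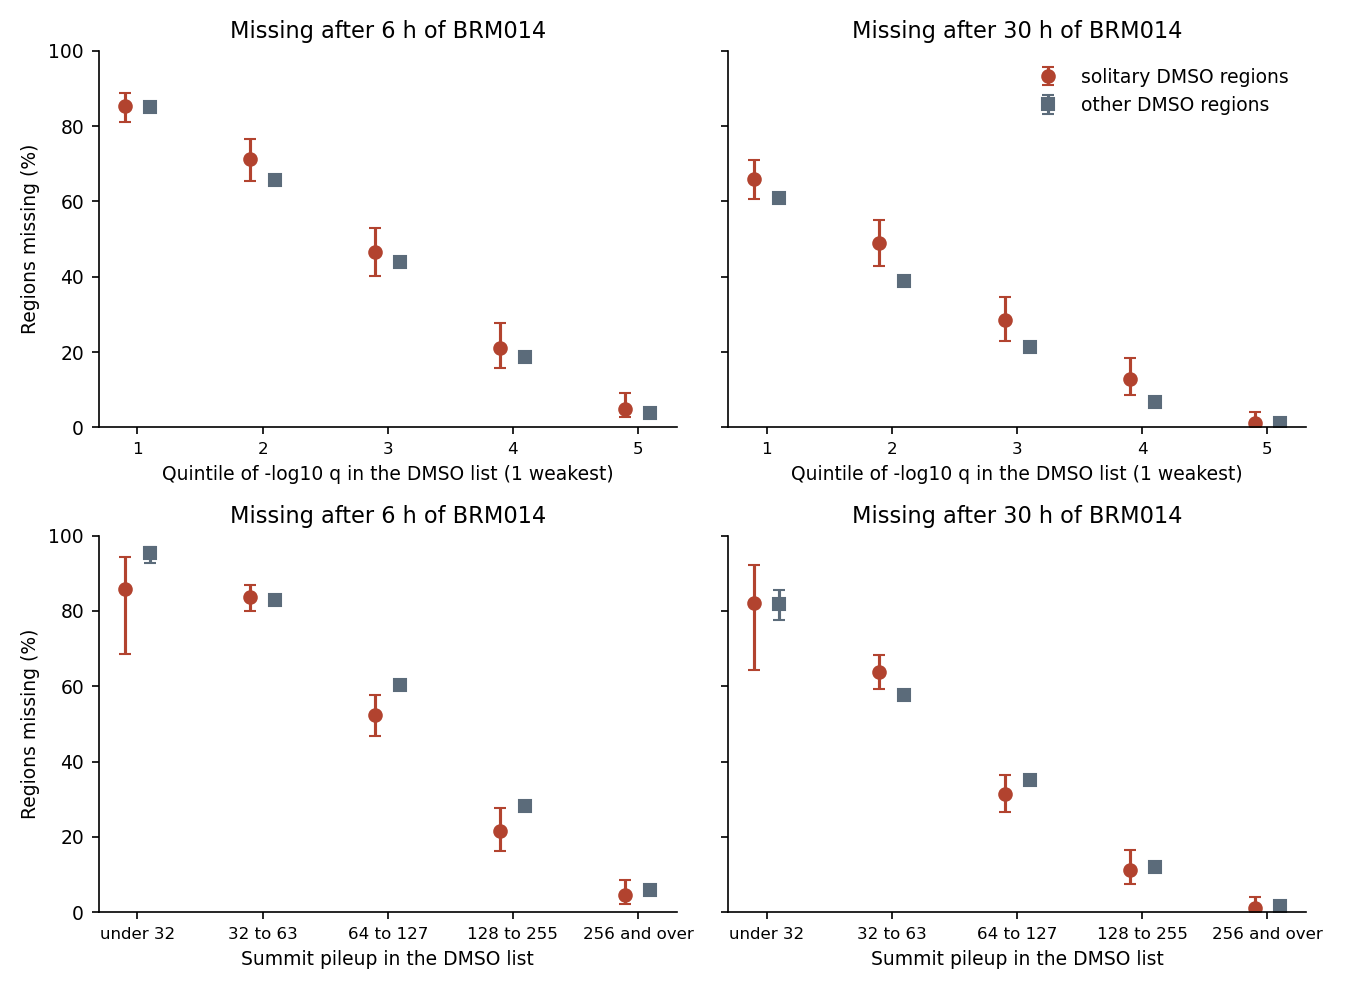
Share missing (vertical axes, %, with 95% Wilson intervals) after 6 h (left) and 30 h (right) by quintile of -log10 q (top) and by summit pileup in DMSO (bottom), for solitary (circles) and other DMSO regions (squares). The share drops with strength in both. At 30 h solitary regions lie above the others in the 4 weaker quintiles, whereas at 6 h those with 64 to 255 pileup lie below the others. By pileup at 30 h they lie above the others at 32 to 63 and below them from 64 up.

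The gap between solitary and other regions was widest among regions with a single summit. Of the 578 solitary regions with 1 summit, the 6 h list lacked 70.4% (66.6 to 74.0%), against 56.5% of other regions with 1 summit (55.8 to 57.2%). The 30 h list lacked 48.8% of them (44.7 to 52.9%), against 34.9% of the others (34.3 to 35.6%). With 3 or more summits, 18.2% of solitary regions were missing at 6 h (13.5 to 24.1%), against 18.2% of the others (17.4 to 19.1%). At 30 h these shares were 13.8% (9.72 to 19.2%) against 8.75% (8.14 to 9.40%). The shares by number of summits were not weighted by strength, so differences in strength between solitary and other regions remain in them.

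Most chromosomes showed the same order, with solitary regions missing more often. Solitary regions made up between 1.35% of DMSO regions on chromosome 19 (22 of 1634) and 3.77% on chromosome 6 (85 of 2252). They were missing more often than the other regions of the same chromosome on 17 of 19 chromosomes at 6 h and on 18 of 19 at 30 h. The share missing at 30 h was highest on chromosome 8, 29 of 53 (54.7%, 41.5 to 67.3%), where 25.6% of the others were missing. It was lowest on chromosome 18, 6 of 36 (16.7%, 7.87 to 31.9%), where 28.7% of the others were missing.

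**Figure D4:**
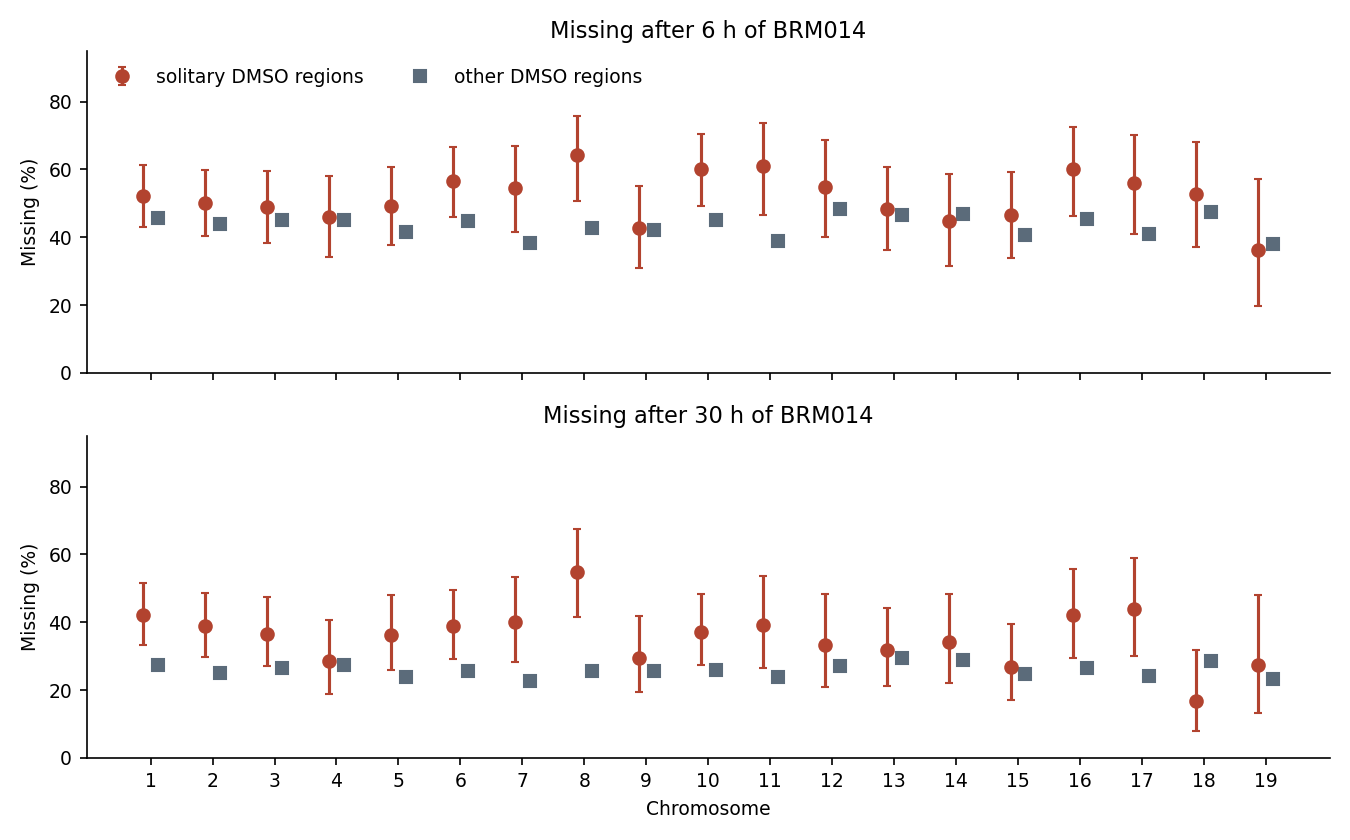
Share of DMSO regions missing (vertical axes, %) after 6 h (top) and 30 h (bottom) by chromosome, for solitary regions (circles, 95% Wilson intervals) and the other regions of the same chromosome (squares). Circles lie above squares on 17 of 19 chromosomes at 6 h and on 18 of 19 at 30 h.

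The 6 h and 30 h lists were both set against the same DMSO list, so their losses are not independent of each other. By both lists together, 507 solitary regions were called at both times (44.0%, 41.1 to 46.9%) and 376 at neither (32.6%, 30.0 to 35.4%), against 54.4% (53.9 to 54.9%) and 23.4% (22.9 to 23.8%) of the others. Over all DMSO regions of chromosomes 1 to 19 the background of regions missing at both times was 23.6%. A further 225 solitary regions were missing at 6 h only (19.5%, 17.3 to 21.9%), close to the 19.9% of the others (19.5 to 20.3%). Another 45 were missing at 30 h only (3.90%, 2.93 to 5.18%), against 2.32% of the others (2.18 to 2.47%). The regions called at both times were the strongest, with a median pileup of 168 and a median -log10 q of 160 in DMSO, and those missing at both times the weakest, with medians of 51 and 38.9. Regions missing at 6 h only had a median pileup of 67, and those missing at 30 h only one of 75.

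The pileup found at a summit was compared with that expected from DMSO after scaling to the depth of the treated list. Where at least 128 was expected, the median of found over expected was 0.854 in 229 solitary regions at 6 h (quartiles 0.435 and 1.06, missing regions counted as 0), against 0.719 in 13082 other regions (0.406 and 1.02). At 30 h it was 0.963 in 301 solitary regions (0.546 and 1.14), against 0.901 in 16980 others (0.603 and 1.08). A pileup under 0.5 of that expected was found in 70 of the 229 solitary regions at 6 h (30.6%, 25.0 to 36.8%) against 33.4% of the others (32.6 to 34.2%). At 30 h it was found in 71 of 301 (23.6%, 19.1 to 28.7%) against 18.3% of the others (17.7 to 18.9%). At 6 h, 124 of the 229 solitary regions lay between 0.75 and 1.25 of the expected pileup, 26 between 0.5 and 0.75 and 45 between 0.25 and 0.5. These are shares of 54.1% (47.7 to 60.5%), 11.4% (7.87 to 16.1%) and 19.7% (15.0 to 25.3%), against 39.6% (38.8 to 40.5%), 18.9% (18.3 to 19.6%) and 20.5% (19.8 to 21.2%) of the others, so at 6 h solitary regions were more often near expectation and less often in the range just below it. At 30 h the same ranges held 53.2%, 11.3% and 14.6% of 301 solitary regions, against 55.9%, 17.4% and 11.6% of the others. Above 1.25 lay 3.93% of solitary regions at 6 h (2.08 to 7.30%), against 8.07% of the others (7.62 to 8.55%). At 30 h the order was the other way, 12.0% (8.77 to 16.1%) against 8.42% (8.01 to 8.85%). Solitary and other regions were not weighted by strength in these ranges.

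**Figure D5:**
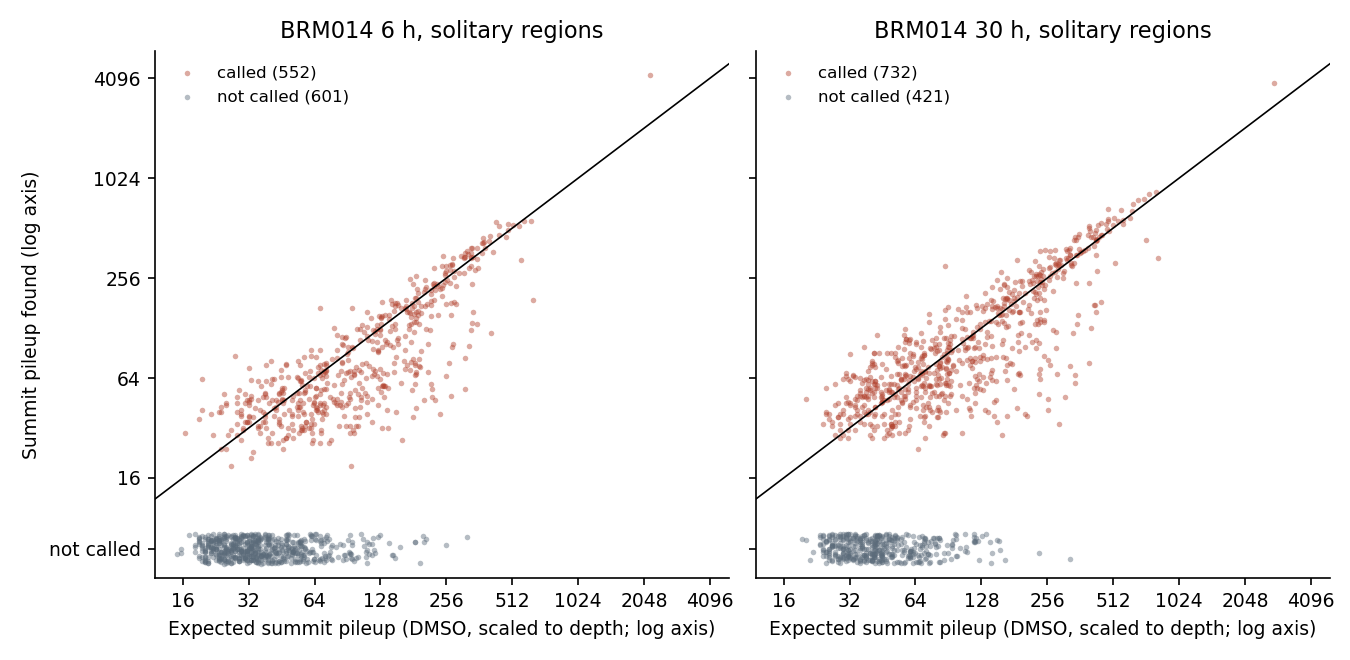
Summit pileup found in solitary regions after 6 h (left) and 30 h (right) on the vertical log axis, against the pileup expected from DMSO at that list's depth on the horizontal log axis; each point is 1 region and the line marks equality. Regions not called (601 at 6 h, 421 at 30 h) are drawn in a band at the bottom, spread vertically for legibility. Many points with at least 128 expected follow the line, and a separate scatter lies below it.

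Regions still called kept their position and were mostly narrower, solitary or not. The main summit lay within 100 bp of the DMSO summit in 94.7% of the 552 regions called at 6 h and in 96.7% of the 732 called at 30 h, against 92.9% and 94.1% of the other regions called; the median shifts were 12 bp at 6 h and 10 bp at 30 h in both sets. The called interval was narrower than in DMSO in 443 of 552 at 6 h (80.3%, 76.7 to 83.4%), against 74.8% of the other regions called (74.2 to 75.4%), and in 481 of 732 at 30 h (65.7%, 62.2 to 69.1%), against 66.3% of the others (65.8 to 66.9%). The median change of width in solitary regions was -85.5 bp at 6 h and -28.5 bp at 30 h. Called widths also shrink with depth, and the lower depth of the treated lists cannot be told apart from treatment here. More than 1 treated region overlapped 10 solitary regions each time, 1.81% of those called at 6 h (0.987 to 3.30%) against 1.24% of the others (1.10 to 1.39%), and 1.37% at 30 h (0.744 to 2.50%) against 1.41% of the others (1.29 to 1.55%).

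New treated regions near solitary regions were counted next. A new treated region, one that overlapped no DMSO region, lay within 100 kb of 83 solitary regions at 6 h (7.20%, 5.84 to 8.84%) and of 267 at 30 h (23.2%, 20.8 to 25.7%). The other DMSO regions had such a neighbour in 28.0% of cases at 6 h (27.6 to 28.5%) and in 63.7% at 30 h (63.3 to 64.2%), so the share was higher at 30 h in both sets. The rule picks stretches with few DMSO regions, which favours a lower share in solitary regions. A new region also counts once for every DMSO region near it, so the cases among the others are not independent. When lists were cut to an equal length of 25922 regions, the share of solitary regions was 25.4% at 6 h and 23.2% at 30 h. It was thus no longer lower at 6 h than at 30 h. No share was computed for the others under this cut, and a new region could overlap a DMSO region that the cut removed. At 6 h no solitary region had more than 2 such neighbours, and at 30 h none had more than 4. Of the solitary regions called at 6 h, 495 of 552 were also more than 100 kb from any other 6 h region (89.7%, 86.9 to 91.9%), and of those called at 30 h 537 of 732 from any other 30 h region (73.4%, 70.0 to 76.4%). A treated region lay within 500 bp of 0 of the 601 missing at 6 h, with an upper limit of 0.635%, and of 1 of the 421 missing at 30 h. The rule leaves no DMSO region within 100 kb, so only a new treated region could lie there and low counts are favoured. This share was not computed for the other missing regions. Treated regions that were themselves over 100 kb from every DMSO region numbered 103 of 25331 at 6 h (0.407%) and 403 of 37500 at 30 h (1.07%), with median -log10 q values of 27.7 and 31.6.

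The 8 strongest solitary regions by -log10 q were called in all 3 lists. The first of them stood far from the rest: on chromosome 5 from 60433931 to 60434389, 459 bp wide and 1.92 Mb from its nearest neighbour, it had a summit pileup of 4309 at 6 h and 3816 at 30 h against 3462 in DMSO. These exceeded the 2181 and 2795 expected at the depths of the treated lists, and this was the strongest entry of every list by -log10 q, at 5650 at 6 h and 5009 at 30 h against 4559 in DMSO. The other 7 had DMSO pileups between 758 and 1016.

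Of these 7, the region on chromosome 9 from 87358507 to 87359484 had the lowest treated values against expectation. Its pileup was 189 at 6 h and 339 at 30 h against 1016 in DMSO, where 640 and 820 were expected. On chromosome 10 from 92184560 to 92185639 the pileup was 329 at 6 h and 436 at 30 h against 894 in DMSO, also below the 563 and 722 expected. The remaining 5 lay close to expectation at both times. On chromosome 1 from 7078515 to 7079385 the pileup was 562 at 6 h and 842 at 30 h against 994 in DMSO, with 626 and 802 expected. On chromosome 3 from 5575758 to 5576770 it was 530 and 772 against 873 in DMSO, with 549.9 and 705 expected. Another near expectation was on chromosome 15 at 44450211 to 44451439, with 566 at 6 h and 821 at 30 h against 921 in DMSO. The next was on chromosome 19 at 31157077 to 31157799, with 455 at 6 h and 586 at 30 h against 758 in DMSO. The last was on chromosome 6 at 66484984 to 66485819, with 538 at 6 h and 760.0 at 30 h against 822 in DMSO. Strong solitary regions thus included both kinds, those that held the expected pileup and those well below it.

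The most remote member lay on chromosome 8 from 101967310 to 101967818, 3.53 Mb from its nearest neighbour. It was missing at both times and had a pileup of 56 in DMSO. The next, on chromosome 2 from 87847588 to 87848562 and 2.47 Mb from its neighbour, was called at both times with a pileup of 48 at 6 h and 35 at 30 h against 186 in DMSO, where 117 and 150.1 were expected. On chromosome 14 from 6240600 to 6240881, with no region to its left and 2.34 Mb to the next on its right, a region with a DMSO pileup of 51 was missing at both times. The region on chromosome 1 from 104524713 to 104524988, 2.22 Mb from its neighbour, was narrow, at 276 bp, and had a fold enrichment of 45.4 in DMSO. Its pileup was 148 at 6 h and 129 at 30 h against 205 in DMSO, where 129 and 165 were expected. On chromosome 7 from 11080240 to 11081042, 1.93 Mb from its neighbour, the pileup was 139 at 6 h and 265 at 30 h against 289 in DMSO. There 182 and 233 were expected. Of these 5 most remote regions, 3 were called at both times and 2 at neither.

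Among the solitary regions missing at both times, the strongest by -log10 q lay on chromosome 1 from 114844117 to 114844998, with a pileup of 403 and a -log10 q of 412 in DMSO. At the depths of the treated lists 254 and 325 would have been expected there. The second, on chromosome 3 from 68056202 to 68056843, had a pileup of 291 and a -log10 q of 265 in DMSO. The next 4 had DMSO pileups from 174 to 192. One of them spans bases 104550833 to 104551542 of chromosome 6 and another bases 66519934 to 66520654 of chromosome 8. The remaining pair spans bases 100952782 to 100953643 of chromosome 10 and 105389177 to 105389855 of chromosome 5. The upper quartile of -log10 q among all 376 regions missing at both times was 54.5.

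The strongest regions missing at 6 h and called at 30 h stood below the expected pileup at 30 h. On chromosome 16 from 76080078 to 76080809 the pileup was 128 at 30 h against 503 in DMSO, with 406 expected. On chromosome 13 from 83031703 to 83032394 it was 41 at 30 h against 320 in DMSO, and on chromosome 18 from 3839499 to 3840157 it was 48 against 318 in DMSO. The fourth, on chromosome 2 from 36328829 to 36329648, had 87 at 30 h against 307 in DMSO. In all 4 the 30 h value was under 0.5 of that expected, so their presence in the 30 h list does not show a return to the vehicle level. These 4 were chosen for a high DMSO -log10 q and a missing call at 6 h. That choice favours low treated values, so they do not stand for all regions missing at 6 h only.

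Of the 45 solitary regions called at 6 h and missing at 30 h, the strongest were weakly called at 6 h. On chromosome 7 from 82069039 to 82069784 the pileup was 39 at 6 h against 176 in DMSO, where 111 was expected, and the 6 h interval was 327 bp wide against 746 bp in DMSO. On chromosome 8 from 34099534 to 34100493 it was 53 at 6 h against 204 in DMSO, with 129 expected. On chromosome 6 from 75936338 to 75937039 it was 47 at 6 h against 166 in DMSO, with 105 expected. The region on chromosome 17 from 62182636 to 62183269 had 43 at 6 h against 135 in DMSO, with 85.0 expected. All 4 were below the expected pileup at 6 h. They were chosen for a high DMSO -log10 q and a missing call at 30 h, which favours low treated values.

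The weakest solitary regions that were called at both times went the other way. On chromosome 3 from 44800091 to 44800413 the pileup was 36 at 6 h and 34 at 30 h against 30 in DMSO, where 18.9 and 24.2 were expected. On chromosome 1 from 146447893 to 146448235 it was 63 and 56 against 31 in DMSO, with 19.5 and 25.0 expected. On chromosome 5 from 81112425 to 81113301 it was 41 and 39 against 31 in DMSO, and on chromosome 2 from 177999178 to 177999430 it was 40 and 41 against 37 in DMSO. All 4 exceeded expectation at both times, but a region this weak in DMSO is called in a shallower list only if its pileup there is high, so the choice of called regions fixes that direction.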

How the data were processed

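ATAC-seq was made from NMuMG cells in 3 groups of 2 replicates, and each deposited list was made from both replicates, per the labels. Per the submitters' processing notes, MACS2 2.1.2 called the peaks and the build was mm9. Alignment, read filtering, any transposase shift and the caller's options are not given in the sources used here. The authors deposited per entry a score (540 to 1000), a ratio (fold enrichment at the summit), a -log10 p, a -log10 q and the summit offset.

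Entries overlapping by at least 1 bp were merged, keeping the highest values. The MACS2 defaults were assumed, in which 1 is added to pileup and to background before they are divided and p is Poisson. From these, the pileup (a whole number) and the background of every entry were solved; 100% of entries then met the authors' -log10 p to within 0.001. Depth was assumed proportional to the smallest background of a list, and read totals were not used. A region's pileup is the highest of its entries, and its background is taken at that summit.

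Shares have 95% Wilson intervals; differences and weighted shares have 95% intervals from binomial variances, counting error only. With 1 list per group no test between treatments was made. Other chromosomes' solitary regions (X) were left out by the rule. The members, gap classes and tests were chosen with earlier results of these data known. Regions named were, by -log10 q, the 8 strongest, the 6 strongest missing at both times, the 4 strongest missing at each single time and the 4 weakest called at both. They also include the 5 with the largest gaps and 3 on each side of the limit; ties went to the lower chromosome and start. Motifs, base composition and distances to start sites were not analysed here, since no mm9 genome was used. Python 3.11.15, pandas 2.3.3, NumPy 2.4.6 and SciPy 1.17.1 were used, and the steps were tested on simulated data.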

Additional observations from a re-analysis of the deposited data

Results flagged for a closer look

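The rule for solitary regions covers chromosomes 1 to 19, and the X chromosome lay outside it. The X chromosome held 103 DMSO regions over 100 kb from any other, of which the 6 h list lacked 50.5% (41.0 to 59.9%) against 47.7% of the other 975 DMSO regions there (44.6 to 50.8%). The 30 h list lacked 35.0% of them (26.4 to 44.6%) against 28.9% of the others (26.2 to 31.8%), and the intervals overlap at each time.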

How the results depend on the processing

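Alternatives that moved a value beyond its 95% interval were these. A gap over 50 kb, which takes in 3214 regions, gave shares missing of 46.7% (6 h), 31.7% (30 h) and 28.7% (both), with solitary minus other differences of 3.51 and 6.22 points. A gap over 200 kb (413 regions) gave 40.0% missing at 30 h, a difference of 14.1 points, and new neighbours of 4.36% at 6 h and 13.8% at 30 h. With only entries at a score of 1000 in all lists, 1340 regions were solitary, with 55.9% missing at 6 h, 36.7% at both times, a 6 h difference of 4.50 points and new neighbours of 1.72% and 13.7%. With the 25922 strongest regions of every list, 1480 were solitary; the shares were 26.3%, 27.2% and 19.4%, the differences 3.50 and 7.88 points and new neighbours at 6 h 25.4%, so the order of the times did not hold. Counting a treated region within 500 bp as called moved the 6 h difference within deciles of -log10 q to 4.77 points. The solitary share stayed at 52.1%, so the move came from the others, which the wide gaps of solitary regions favour. With deciles of fold enrichment in place of -log10 q, the 6 h and 30 h differences were 15.5 and 15.4 points. They were -4.00 and 0.518 for summit pileup, and -8.32 and -2.71 for local background. The 30 h value for local background turned the direction of the reported difference. At 6 h the values below 0 had the other sign, but the reported interval included 0, so no direction was set there. The cause was not tested. The last 2 measures were chosen after seeing the data. The 6 h difference within deciles of -log10 q, whose interval included 0, had an interval above 0 under 5 alternatives: 0.355 to 5.06 with an overlap of 50%, 2.45 to 7.09 within 500 bp, 1.14 to 5.32 at a score of 1000, 0.536 to 4.63 with equal lists and 0.00285 to 4.65 with a neighbour on both sides. With a gap over 50 kb (-0.970 to 1.85) or over 200 kb (-2.49 to 5.42) the interval still included 0. The other 34 values stayed within the intervals of the reported values, and the difference without weights kept its direction under every alternative run. Of 37 named regions, 2 changed state under another overlap rule: those on chromosome 7 from 82069039 and chromosome 13 from 23249688 were not called at 6 h with an overlap of at least 50%. No paired analysis was possible because the replicates of a group are pooled in its list, and likewise no replicate could be left out. The depth of the treated lists limits what can be said of regions with a DMSO pileup under 64, most of which were missing in either treated list.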
